A study of Mus musculus with 2 samples.

Results

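Genes of the pancreas were followed in liver RNA: 25 exocrine genes (digestive enzymes and granule proteins of acinar cells), 6 islet hormone genes and 4 transcription factors, 35 genes in all of the 43346 Ensembl genes in the tables. The list was selected on measured values, since the difference in these genes between the 2 livers of the series was already known when it was drawn up. Levels and ratios between the livers are therefore given as a description and are not tested. All 35 genes had a row in both tables. The livers came from 2 newborn pups of the inbred mouse strain B6NCrl on postnatal day 0, both born to the same dam, and their sex was not collected. Each library represents 1 liver; its input was 10 ng of RNA in the size range above 200 nt, to which ERCC spike-in RNAs had been added. The labels name no treatment, so the 2 livers form 1 group and the comparison is pup 2 against pup 1, with 1 library each. No pancreas library was analysed here.

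Acinar cells of the pancreas make digestive proteases as inactive precursors (trypsinogens, chymotrypsinogens, proelastases and procarboxypeptidases), together with lipases, amylase and ribonuclease, and store them in zymogen granules. The islets hold beta cells that secrete insulin and amylin, and alpha, delta and PP cells that secrete glucagon, somatostatin and pancreatic polypeptide. Acinar gene expression is driven by the PTF1 complex, in which Ptf1a pairs with an E protein and with Rbpjl or its relative Rbpj. Liver and pancreas arise from neighbouring parts of the foregut endoderm.

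Values are levels in TPM (reads per effective length, scaled to a fixed total) or numbers of expected counts, which are estimated reads. Summed over the 25 exocrine genes, TPM was 34.4 in the liver of pup 1 and 201 in that of pup 2. The sum of the 6 islet hormones was 0.09 TPM in pup 1 and 13.3 TPM in pup 2. The 4 transcription factors summed to 0.17 TPM in pup 1 and 0.19 TPM in pup 2. The enzyme and hormone sums thus stood higher in pup 2. The transcription factor sum was low and about level, but nearly all of it was Bhlha15 (0.15 and 0.16 TPM). Ptf1a, Rbpjl and Pdx1 had too few counts in either liver to compare. All 35 genes together held 0.00347% of TPM in pup 1 and 0.0215% in pup 2. In bulk tissue, a change in the number of cells of a type cannot be told apart from a change in RNA per cell.

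A gene was counted as at least 2-fold higher in pup 2 when 3 conditions held: a log2 ratio of TPM + 1 of at least 1, an average of at least 1 TPM, and deposited credible intervals that lay apart. By this rule 15 of the 35 genes were higher in pup 2 and 0 were lower, beside 0.566% of all genes with a mean TPM of 1 or more (72 of 12711). Nothing is read from the contrast between these shares, because the list was chosen with this difference known. Of the 35 genes, 17 passed the mean of 1 TPM, and a gene that passed only through its level in pup 2 had to differ. A count rule reached more of the low genes: it asked for at least 10 expected counts over both livers and a 95% counting interval of the ratio wholly above 2. It was met by 23 of the 27 genes with enough counts, beside 1.05% of all genes (184 of 17461). TPM was higher in pup 2 for 31 of the 35 genes, equal for 4 and lower for 0. Over all genes with a mean TPM of 1 or more, 36.6% stood higher in pup 2.

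**Figure D1:**
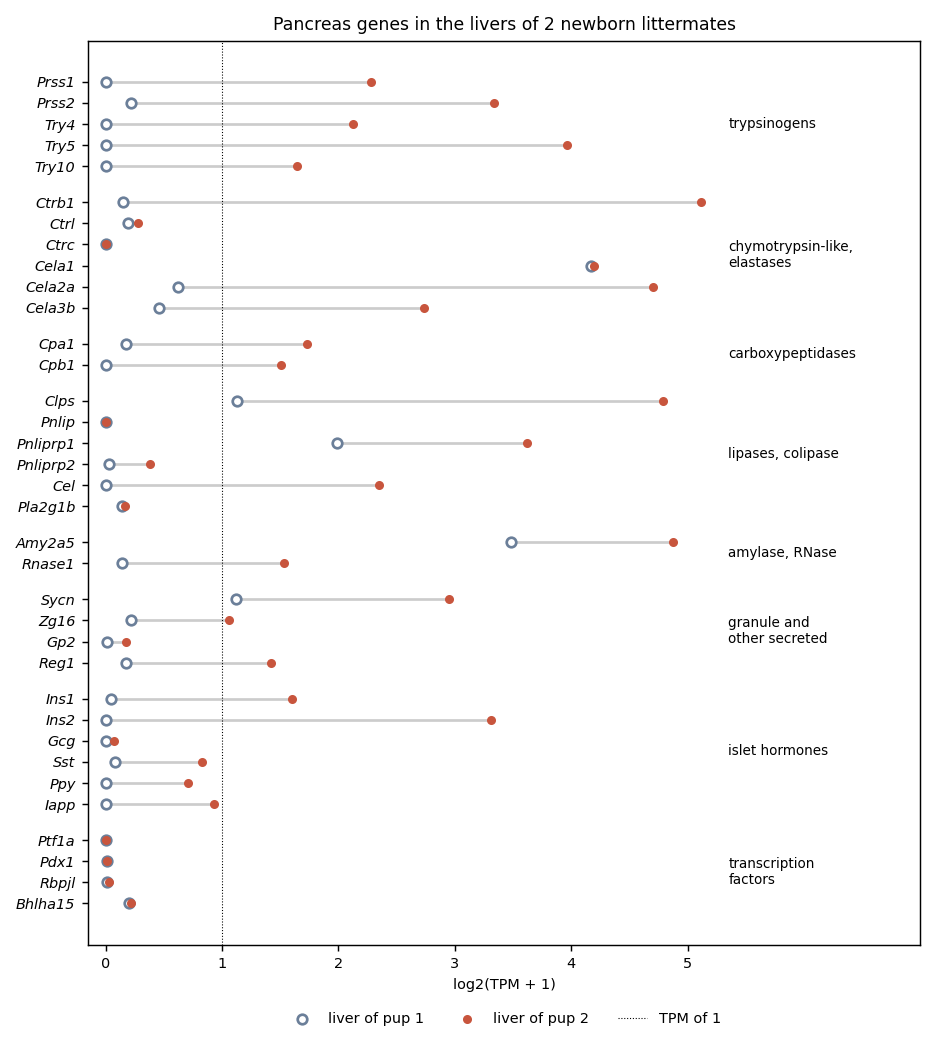
Level of each of the 35 genes as log2(TPM + 1) in the liver of pup 1 (open circles) and of pup 2 (filled circles), grouped by role; the dotted line marks 1 TPM. In pup 1, 5 genes lie at or above 1 TPM, and in pup 2, 21 do; Cela1 (17 and 17.3 TPM) and the 4 transcription factors are among those with almost no gap.

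The thresholds cut through a continuous range. Just inside the mean of 1 TPM were Ins1 (1.03 TPM), Try10 (1.06 TPM) and Cpa1 (1.22 TPM). Just outside were Rnase1, the pancreatic ribonuclease (0.995 TPM), Cpb1, carboxypeptidase B (0.92 TPM), and Reg1, a secreted regenerating protein (0.9 TPM). These 3 had log2 ratios of 1.39, 1.51 and 1.24 and met the count rule. Amy2a5 passed on size but its credible intervals overlapped. It met the count rule, but on counts divided among near-identical amylase copies.

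The trypsinogens, which intestinal enteropeptidase turns into trypsin, were close to absent in pup 1. Prss2 (ENSMUSG00000057163.3, chromosome 6, 41521787 to 41525079 in GENCODE M21 on GRCm38) had 4 expected counts in pup 1 and 234 in pup 2, or 0.16 and 9.13 TPM. Its count ratio per library total was 59.5 (95% counting interval 22.9 to 220.1). Try5 (chromosome 6, 41311233 to 41316841) had 0 counts in pup 1 and 368 in pup 2, where it stood at 14.6 TPM and was the most abundant of the 5. Against the 3 counts that a count of 0 allows, Try5 was at least 125-fold higher in pup 2. Bounds of this kind, here and below, leave out counting error in pup 2. Prss1 had 0 and 97.8 counts (3.87 TPM in pup 2, at least 33.1-fold higher). Try4 had 0 and 84.7 counts (3.37 TPM, at least 28.7-fold), and Try10 had 0 and 57.8 counts (2.12 TPM, at least 19.6-fold). Summed over the 5 genes, the counts were 4 and 842, with a ratio of 214 (83.3 to 787).

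These 5 genes lie in 1 cluster on chromosome 6 and resemble each other, so the division of reads among them is uncertain. Each has a coding sequence of 738 nt, and the 10 pairs are 89.6% to 97.4% identical, with 114 positions at which at least 1 gene differs. The stretch below, coding positions 262 to 336, was picked as the 75 coding bases with the most positions that differ among the 5 genes. It lies in the third exon and is read 5′ to 3′, from GENCODE M21 transcripts. Capitals mark the 23 positions at which the 5 genes are not all the same. On GRCm38 the stretch is chr6:41462596-41462670 in Prss1, chr6:41523916-41523990 in Prss2, chr6:41304387-41304461 in Try4, chr6:41312305-41312379 (minus strand) in Try5 and chr6:41356584-41356658 in Try10, on the plus strand except in Try5.
Prss1: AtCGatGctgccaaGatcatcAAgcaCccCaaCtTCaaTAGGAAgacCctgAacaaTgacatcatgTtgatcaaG
Prss2: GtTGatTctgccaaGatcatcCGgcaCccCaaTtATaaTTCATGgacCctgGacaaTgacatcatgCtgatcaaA
Try4: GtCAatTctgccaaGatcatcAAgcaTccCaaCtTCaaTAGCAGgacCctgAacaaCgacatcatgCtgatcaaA
Try5: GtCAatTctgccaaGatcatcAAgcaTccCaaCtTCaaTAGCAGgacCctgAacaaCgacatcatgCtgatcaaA
Try10: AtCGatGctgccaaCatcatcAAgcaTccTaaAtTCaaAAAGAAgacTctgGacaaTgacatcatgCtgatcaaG

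Try4 and Try5 have the same letters throughout this stretch. Of all 100-base windows of the transcript, 30.2% in Try4, 25.6% in Try5, 21.8% in Prss1 and 11.6% in Try10 also occur in a transcript of another gene. For Prss2 the share was 0, so a read of that length from Prss2 has no exact match in another gene, and its 4 and 234 counts are the ones least exposed to the division of shared reads. Adding 6 further trypsinogen copies of the locus brought the counts to 4 against 1170, with a ratio of 297 (116 to 1093). All 11 copies stood higher in pup 2 and 10 of the 11 were at 0 in pup 1.

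**Figure D2:**
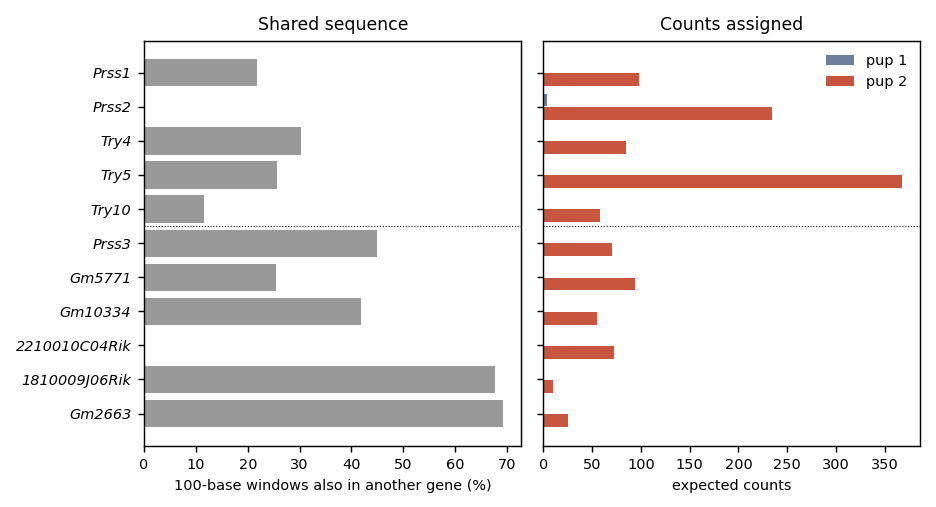
Share of 100-base windows of each trypsinogen transcript that also occur in another gene (left, percent) and expected counts in each liver (right); the dotted line separates the 5 listed genes from 6 further copies. Prss2, with no shared window, has 234 counts in pup 2, and the bars of pup 1 are at 0 for every copy except Prss2.

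Among the chymotrypsin-like proteases and elastases, 3 of 6 genes were at least 2-fold higher in pup 2. Ctrb1, chymotrypsinogen B (ENSMUSG00000031957.5, chromosome 8, 111686519 to 111691010), had 3 counts in pup 1 and 947 in pup 2, or 0.11 and 33.6 TPM. Its count ratio was 321 (109 to 1559), and its TPM in pup 2 was above that of every other listed gene, within the limit that the credible interval of Amy2a5 (1.02 to 48 TPM) covers it. Cela2a, a proelastase (chromosome 4, 141814962 to 141826160), had 18 and 711 counts (0.54 and 25 TPM), a ratio of 40.1 (25.2 to 68.1). Its annotated span overlaps that of Ctrc, chymotrypsin C, which was listed at 0 in both livers, and 21.7% of its windows occur in Ctrc, so the division between these neighbours is uncertain. Cela3b had 11 and 167 counts (0.37 and 5.64 TPM), a ratio of 15.4 (8.41 to 31.5), with 12.6% of its windows shared with Cela3a. Ctrl, a chymotrypsin-like protease, had 4 and 6 counts, a ratio of 1.52 (0.362 to 7.35).

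Cela1, another elastase (chromosome 15, 100674421 to 100687921), stood level between the livers. It had 606 counts in pup 1 and 621 in pup 2, or 17 and 17.3 TPM. The ratio was 1.04 with an interval of 0.93 to 1.17, so a 2-fold difference lies outside the counting error. No window of Cela1 was shared with another gene. Its TPM in pup 1 was above that of every other listed gene, again with the credible interval of Amy2a5 (0.634 to 27.9 TPM) covering it.

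Both carboxypeptidases, which trim amino acids from the C-terminal end of peptides, were higher in pup 2 by the count rule. Cpa1, carboxypeptidase A1 (chromosome 6, 30639218 to 30645363), had 7 and 123 counts (0.13 and 2.31 TPM), a ratio of 17.9 (8.41 to 45.4). Cpb1 had 0 and 146 counts and was at least 49.5-fold higher in pup 2.

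Of the 6 genes of fat digestion, 3 were at least 2-fold higher in pup 2. Clps, the colipase that anchors pancreatic lipase to fat droplets (chromosome 17, 28558149 to 28560766), had 19 and 429 counts (1.18 and 26.6 TPM), a ratio of 22.9 (14.5 to 38.5). Cel, the bile salt-activated lipase (chromosome 2, 28555795 to 28563403), had 0 and 246 counts (0 and 4.09 TPM) and was at least 83.3-fold higher. Pnliprp1, a lipase-related protein (chromosome 19, 58728887 to 58744169), was present in both livers with 160.0 and 615 counts (2.96 and 11.3 TPM), a ratio of 3.91 (3.28 to 4.68). Pnlip, the pancreatic triglyceride lipase itself, was listed at 0 in both livers, which allows 3 counts in each. Colipase thus stood at 26.6 TPM in pup 2 with no read given to Pnlip. Pnliprp2 had 1 and 16 counts (ratio 16.3, 2.53 to 682), and the phospholipase gene Pla2g1b had 1 and 2.

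Amy2a5, pancreatic amylase, was detected in both livers with 580.2 and 1637 counts (10.2 and 28.3 TPM). The authors' credible intervals were 0.634 to 27.9 TPM in pup 1 and 1.02 to 48 TPM in pup 2, which overlap. Amylase copies of this locus on chromosome 3 are near-identical. In the M21 transcripts, 47.4% of the windows of Amy2a5 (3715 nt) and every window of Amy2a2, Amy2a3 and Amy2a4 occur in another copy. The authors counted a version of this Amy2a5 transcript of 1717 nt, for which the share was not measured. The coding sequence of Amy2a5 (1524 nt) is 100% identical to those of Amy2a2, Amy2a3 and Amy2a4. In pup 1 the latter 3 copies were each given 578 counts. In pup 2 they were given 307, 1639 and 1640, so the counts of single copies cannot be read as levels of these genes. Summed over Amy2a1 to Amy2a5, the counts were 2316 and 5222, giving a ratio of 2.29 (2.18 to 2.41). Amy1, the salivary and liver amylase, which shares no window with them, had a level of 145 TPM in the liver of pup 1 and 152 in that of pup 2. Rnase1 had 3 and 59 counts (0.1 and 1.89 TPM), a ratio of 20 (6.51 to 99.7).

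Of the 4 granule and other secreted proteins, Sycn passed the 2-fold rule. Syncollin, its product, sits on the inner face of the zymogen granule membrane. Sycn (chromosome 7, 28540885 to 28542209) had 19 and 110.0 counts (1.17 and 6.71 TPM), a ratio of 5.88 (3.6 to 10.1). Reg1 had 3 and 40 counts (ratio 13.6, 4.32 to 68.5), and the granule lectin gene Zg16 had 3 and 21 (ratio 7.12, 2.12 to 37.3). Gp2, the main glycoprotein of the granule membrane, had 1 and 9 counts (ratio 9.15, 1.27 to 401), an interval that reaches below 2.

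**Figure D3:**
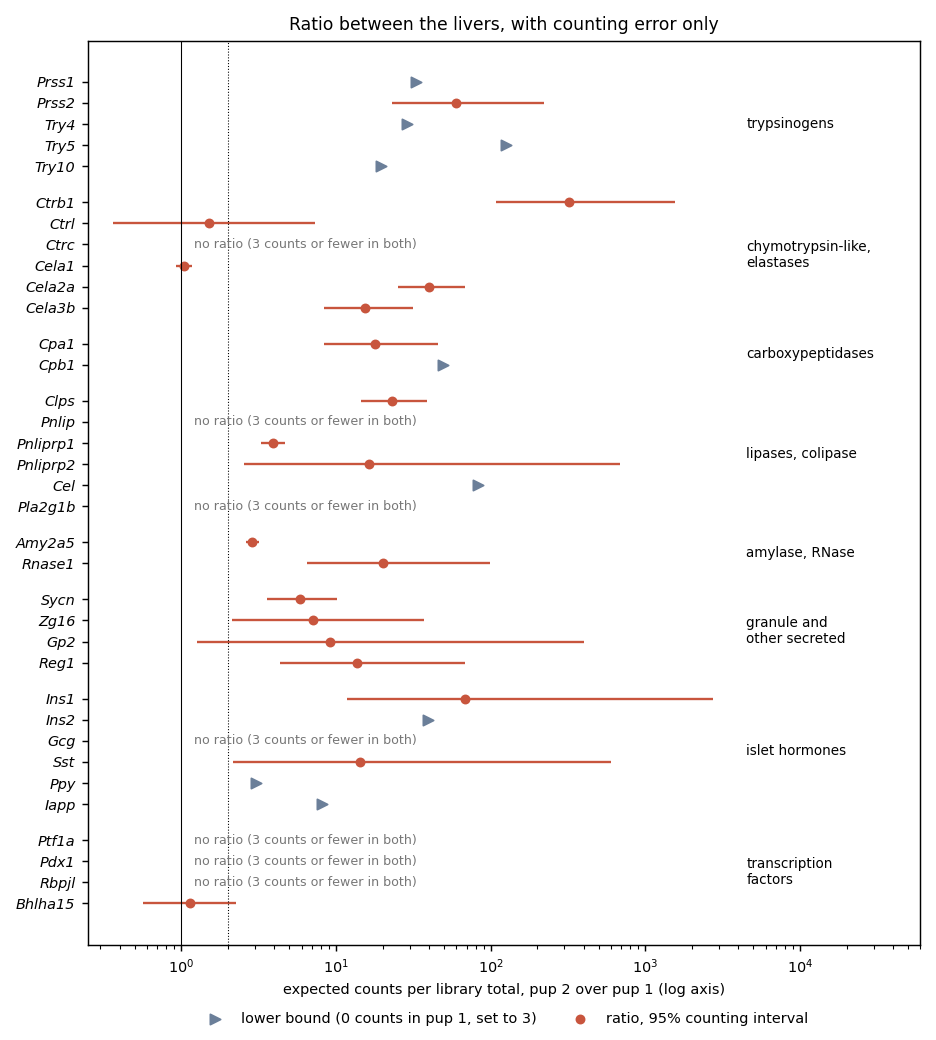
Ratio of expected counts per library total, pup 2 over pup 1, on a log axis, with exact 95% counting intervals (circles) and lower bounds for genes at 0 counts in pup 1 (triangles); solid and dotted lines mark ratios of 1 and 2. Ctrb1 has a ratio of 321 with an interval that overlaps those of Prss2 and Ins1. The bounds of Try5 and Cel, 125 and 83.3, have no upper limit and leave out counting error in pup 2. Cela1 sits at 1.04, and genes with 3 counts or fewer in both livers have no ratio.

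The ratio differed widely among the exocrine genes. Among those at least 2-fold higher with counts in both livers, it ran from 3.91 for Pnliprp1 to 321 for Ctrb1, and these intervals do not overlap. The 3 exocrine genes with over 100 counts in pup 1 (Cela1, Amy2a5 and Pnliprp1) had the ratios 1.04, 2.87 and 3.91. The counts of Amy2a5 were divided among near-identical copies, and the summed copies had a ratio of 2.29 (2.18 to 2.41). The genes with 18 or 19 counts in pup 1 had ratios of 5.88 (Sycn), 22.9 (Clps) and 40.1 (Cela2a). Ratio and level in pup 1 share the same count, so this order is a description. In pup 1, Cela1 and Amy2a5 held 78.8% of the exocrine TPM. Without these 2 genes the exocrine sum was 7.28 TPM in pup 1 and 156 TPM in pup 2, and the count ratio was 17.8 (15.7 to 20.2) in place of 4.75 (4.49 to 5.03). In pup 2, Ctrb1, Clps and Cela2a held 54.7% of that smaller sum. The credible intervals of Ctrb1 (31 to 35.2 TPM) lay above those of Clps (24 to 29 TPM) and Cela2a (22.3 to 27.3 TPM), and those of the last 2 overlapped.

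The islet hormones were all at 0 or 1 count in pup 1. Ins2 (ENSMUSG00000000215.6, chromosome 7, 142678656 to 142743381), an insulin gene, had 0 counts in pup 1 and 116 in pup 2, or 0 and 8.92 TPM, and was at least 39.3-fold higher. Of its TPM in pup 2, 85.9% was given to a transcript of 455 nt. Ins1, the rodent retrogene copy of insulin (chromosome 19, 52264297 to 52265476), had 1 and 67 counts (0.03 and 2.04 TPM), a ratio of 68.1 (11.8 to 2729). The 2 insulin coding sequences are 90.9% identical, but their longest shared run is 54 nt, so no 100-base window is shared. Ins2 stood at 4.37 times the TPM of Ins1 in pup 2, and the 2 genes held 82.2% of hormone TPM.

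The other hormones were lower. Iapp, amylin, had 0 and 24 counts (0.91 TPM in pup 2) and was at least 8.13-fold higher. Sst, somatostatin, had 1 and 14 counts (0.78 TPM in pup 2), a ratio of 14.2 (2.17 to 602). Ppy, pancreatic polypeptide, had 0 and 9 counts (0.63 TPM in pup 2) and was at least 3.05-fold higher. Gcg, glucagon, had 0 and 1 count and stayed within the limit that a count of 0 allows. The order in pup 2 was thus Ins2, Ins1, Iapp, Sst, Ppy and Gcg, and the credible intervals of Iapp (0.649 to 1.6 TPM), Sst (0.428 to 1.24 TPM) and Ppy (0.345 to 1.22 TPM) overlapped. Summed over the 6 hormones, the counts were 2 and 231, a ratio of 117 (32.1 to 975). On TPM the ratio of sums was 148. With the authors' posterior mean in place of TPM it was 10.9; that estimate lies above 0 for every gene and gives Ins2 0.73 TPM in pup 1, where no read was assigned.

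Exocrine and endocrine genes were set side by side by their median log2 ratio on the TPM + 1 scale, pup 2 over pup 1. It was 2.28 over the 15 exocrine genes with a mean of 1 TPM or more and 1.55 over all 25. For the hormones it was 2.44 over the 2 insulin genes and 0.84 over all 6. The median over all genes with a mean of 1 TPM or more was -0.05. For a gene near 0 TPM in pup 1, this scale mostly shows its level in pup 2. Both insulin genes passed the filter through pup 2 alone. So did most of the 15 exocrine genes, since 5 of the 25 reached 1 TPM in pup 1. The medians therefore do not rank the 2 groups by fold. By summed counts the ratio was 4.75 for the exocrine genes, 17.8 without Cela1 and Amy2a5, and 117 for the hormones. In pup 2 the exocrine genes summed to 15.1 times the hormone TPM, and to 11.7 times without Cela1 and Amy2a5.

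The 4 transcription factors of the list were at or near 0 counts in both livers, apart from Bhlha15. Ptf1a, the acinar member of PTF1, was listed at 0 in both livers. Rbpjl, its partner in mature acinar cells, had 2 counts in each liver, as did Pdx1, a regulator of pancreas formation and of the insulin genes. Bhlha15 (Mist1), which organises the secretory apparatus, had 18 and 20 counts (0.15 and 0.16 TPM), a ratio of 1.13 (0.567 to 2.26). Together they had 22 and 24 counts, a ratio of 1.11 (0.596 to 2.07). A ratio as large as that of the enzymes lies outside this interval for the sum, but for Ptf1a, Rbpjl and Pdx1 alone the counts are too few to give a ratio. The 4 general partners of PTF1 (Rbpj and the E proteins Tcf3, Tcf4 and Tcf12) summed to 44.5 TPM in pup 1 and 43 TPM in pup 2, and 0 of 4 were 2-fold apart.

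The regions just upstream of the genes were searched for the letters of the 2 boxes that PTF1 binds, the E-box (CACCTG) and the TC-box (TTTCCCA), on both strands. RefSeq (GRCm38.p6) gave 250 bases before the start of 29 of the 35 genes; Try5, Try10, Ctrc, Clps, Zg16 and Ins2 were not in the table. TTTCCCA or its complement TGGGAAA was found in 6 of these 29 (Prss2, Ctrb1, Cela2a, Cpa1, Cel and Reg1), all exocrine, and in 6.82% of 32851 promoters of the same length. CACCTG or CAGGTG was found in 14 of the 29 and in 17.2% of all promoters, and both motifs in 3 of the 29 (Prss2, Cela2a and Cel) and in 1.17% of all. CACCTG is one form of the general E-box CANNTG, which 66.2% of promoters hold, and no match to it overlapped a TTTCCCA match in these genes. A match is a description of letters and not a bound site.

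The 4 sequences with TTTCCCA whose 250 bases lie outside the annotated gene are printed with Cela1, which stood level between the livers and has no TTTCCCA. Of 15 exocrine genes that met the count rule and had a sequence, 6 held TTTCCCA. The others, among them Prss1, Cela3b and Sycn, lacked it as Cela1 does. Of the 5 exocrine genes with a sequence that did not meet the rule, 0 held it. These are few genes, and a link between the letters and the ratios was not tested. The printed sequences lie at chr6:41521526-41521775 (plus strand, Prss2), chr8:111691011-111691260 (minus, Ctrb1), chr6:30638968-30639217 (plus, Cpa1), chr2:28563404-28563653 (minus, Cel) and chr15:100687921-100688170 (minus, Cela1). Each is read 5′ to 3′ toward the gene, and capitals mark the E-box and TC-box letters on either strand.
Prss2: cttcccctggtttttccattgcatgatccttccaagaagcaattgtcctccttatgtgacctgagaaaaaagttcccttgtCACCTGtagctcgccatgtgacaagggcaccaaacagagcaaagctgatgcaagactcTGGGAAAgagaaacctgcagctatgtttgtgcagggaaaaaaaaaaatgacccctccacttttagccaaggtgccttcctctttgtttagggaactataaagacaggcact
Ctrb1: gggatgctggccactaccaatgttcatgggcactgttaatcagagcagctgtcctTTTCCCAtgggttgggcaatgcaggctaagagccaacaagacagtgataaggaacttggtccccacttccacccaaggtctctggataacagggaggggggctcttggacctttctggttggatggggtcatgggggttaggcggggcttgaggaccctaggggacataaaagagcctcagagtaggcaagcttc
Cpa1: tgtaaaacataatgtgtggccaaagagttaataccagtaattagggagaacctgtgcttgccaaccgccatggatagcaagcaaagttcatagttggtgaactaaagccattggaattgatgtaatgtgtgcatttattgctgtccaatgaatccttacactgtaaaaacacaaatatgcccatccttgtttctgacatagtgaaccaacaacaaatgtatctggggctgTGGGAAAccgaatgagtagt
Cel: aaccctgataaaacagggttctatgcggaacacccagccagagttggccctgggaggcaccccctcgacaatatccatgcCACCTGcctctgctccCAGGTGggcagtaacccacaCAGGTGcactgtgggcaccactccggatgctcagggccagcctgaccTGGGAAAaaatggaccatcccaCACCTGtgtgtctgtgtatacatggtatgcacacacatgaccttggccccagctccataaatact
Cela1: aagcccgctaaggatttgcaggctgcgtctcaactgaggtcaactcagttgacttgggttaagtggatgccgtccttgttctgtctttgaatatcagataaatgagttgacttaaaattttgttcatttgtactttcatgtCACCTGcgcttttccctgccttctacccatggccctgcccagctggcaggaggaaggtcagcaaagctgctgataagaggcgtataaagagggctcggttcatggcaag

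Counted back from the start, the TC-box letters began at -111 in Prss2, -195 in Ctrb1, -20 in Cpa1 and -87 in Cel. Cel held 4 matches to the E-box letters and Prss2 held 1, at -169. Cela1 held 1 as well, at -109, while Ctrb1 and Cpa1 held 0. The E-box letters were in 8 of the 15 exocrine genes that met the count rule and in 2 of the 5 that did not.

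A further 28 genes of acinar cells were measured. Of these, 10 had a mean TPM of 1 or more, and 2 of these, the trypsinogen copies Gm5771 (0 and 3.74 TPM) and Prss3 (0 and 2.72 TPM), were 2-fold higher in pup 2. The median log2 ratio over all 28 was 0.07. By the count rule 8 of 16 with enough counts stood higher. Of 20 further islet genes, which include granins, prohormone convertases and channel subunits, 1 had a mean TPM of 1 or more (Nnat, 5.75 and 5.34 TPM) and 0 were 2-fold apart. Pyy, peptide YY, named after its values were seen, had 0 and 24 counts and met the count rule. Among 19 pancreas transcription factors, 9 were at 0 in both livers, among them Neurod1, Nkx6-1 and Mafa of the beta cell, and 0 of the 7 with a mean TPM of 1 or more were 2-fold apart. Of 8 duct markers, which bile ducts share, 6 had a mean TPM of 1 or more and 0 were 2-fold apart, and their sum was 109.6 TPM in pup 1 and 80.8 TPM in pup 2.

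Markers of 2 other tissues also stood higher in pup 2. Of 14 skeletal muscle genes, 13 were at least 2-fold higher in pup 2 and all 14 met the count rule, with 0 at zero counts in either liver. Their sum was 62.6 TPM in pup 1 and 926 TPM in pup 2, led by Myl1 (5.32 and 134 TPM), Acta1 (16.3 and 310.2 TPM) and Tnnc2 (5.7 and 111 TPM). In pup 2 the muscle sum was 5.95 times that of the exocrine genes without Cela1 and Amy2a5. Of 4 lung genes, 2 were higher, the surfactant gene Sftpc (1.52 and 12.1 TPM) and the club cell gene Scgb1a1 (0.75 and 3.26 TPM), and the sum went from 2.69 to 16.7 TPM. The surfactant gene Sftpb stood at 0.14 and 0.17 TPM. Their part in the result was not tested.

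In the other marker lists 0 genes were 2-fold apart, but few could pass the rule: a mean of 1 TPM was reached by 3 of 18 stomach and intestine genes, 1 of 6 salivary gland genes, and 0 of the adrenal, adipose and kidney genes. The 18 genes of stomach and intestine summed to 946 and 855 TPM, nearly all of it Tff3 (907 and 811 TPM), with 5 at 0 in both livers (Alpi, Atp4b, Cdx1, Cdx2 and Gkn2). Of 6 salivary gland genes, 5 were at 0 in both livers (Bpifa2, Dcpp1, Dcpp2, Prol1 and Smr2). Adrenal genes (5) summed to 0.45 and 0.37 TPM, adipose genes (4) to 0.02 TPM in each liver and kidney genes (5) to 0.01 TPM in each. The 8 hepatocyte markers, which check the labelled tissue, were all detected in both livers and summed to 85988 and 81174 TPM.

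**Figure D4:**
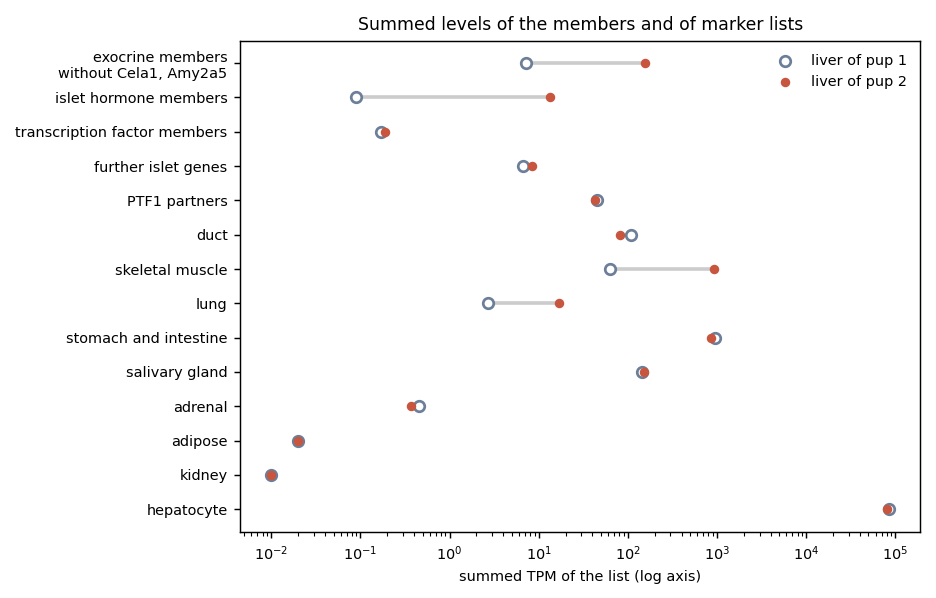
Summed TPM of the listed genes and of marker lists of other tissues in each liver, on a log axis. The exocrine sum without Cela1 and Amy2a5 (7.28 and 156 TPM), the hormone sum (0.09 and 13.3 TPM), the muscle sum (62.6 and 926 TPM) and the lung sum (2.69 and 16.7 TPM) differ between the livers, and the hepatocyte, duct, stomach and intestine, and transcription factor sums lie close together.

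**Figure D5:**
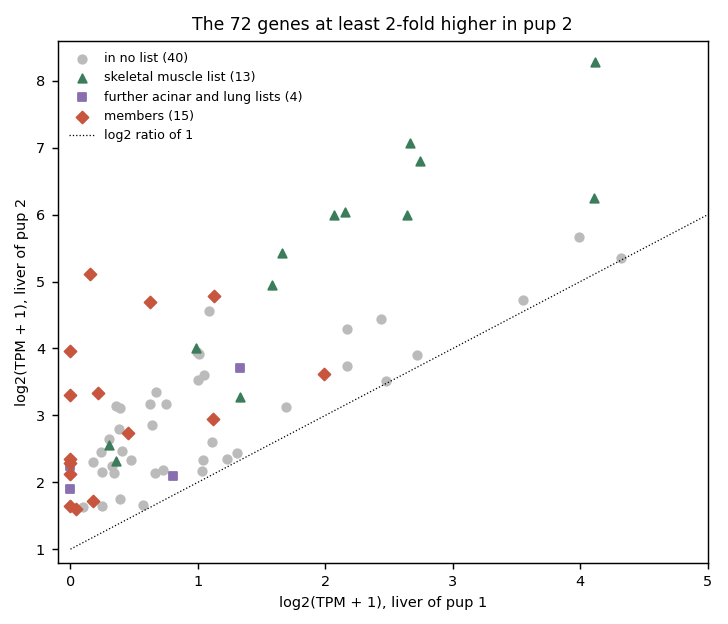
The 72 genes at least 2-fold higher in pup 2, as log2(TPM + 1) in each liver; the dotted line marks a log2 ratio of 1. The 15 genes of the pancreas list (diamonds) lie below 1 TPM in pup 1 except Clps, Pnliprp1 and Sycn. The 13 skeletal muscle genes (triangles) include those with the highest levels in pup 2. A further 40 genes were in none of the lists, which are short and do not hold every gene of a tissue.

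The libraries were of like depth, with 42124582 expected counts in pup 1 and 41443673 in pup 2. A count of 0 therefore allows up to 0.0712 CPM in pup 1 and 0.0724 CPM in pup 2, where CPM is a count relative to all expected counts of its library. Across all genes the livers were close: the SD of the log2 ratio was 0.36 over 6706 genes with a mean of 1 to 10 TPM and 0.28 over 4929 genes with 10 to 100 TPM.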

How the data were processed

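RNA of 2 livers was measured, 1 library each. The authors deposited expected counts per gene, which are estimated reads and split a read that fits more than 1 gene. They also deposited TPM and FPKM values and, per transcript, the percent of the gene's TPM it holds. Assembly mm10 and GENCODE M4 are named in the deposited notes; the program that aligned or counted is not given in the sources used here. Effective lengths match fragments of 100 nt. The credible intervals are the authors', at a level the file headers do not give, and belong to their posterior mean.

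The genes, lists and rules were chosen with earlier results of these data known. Named are all genes of the list with a mean TPM of 1 or more, every hormone and transcription factor, and up to 3 genes of each comparison list; other names were added after values were seen. Symbols and coordinates come from GENCODE M21 on GRCm38, matched by Ensembl identifier. Ratios use log2(TPM + 1), which understates low genes. Count ratios carry exact Clopper-Pearson 95% intervals, conditional on the total of both livers. They leave out all but counting error, and without molecular identifiers a read is not an independent molecule. A fold against 0 counts uses a floor of 3 counts in that library. It takes the count of the other library as it stands, without counting error. Sequence windows of 100 bases were compared exactly, on the longest coding transcript of each gene and all M21 transcripts. The lengths of these transcripts can differ from those the authors counted. The spread between livers was also estimated with edgeR 4.0.16 in R 4.3.3 on rounded expected counts. Other steps used Python 3.11.15, pandas 2.3.3, scipy 1.17.1 and Biopython 1.88. The 2-fold rule and the counting interval were run on simulated counts in which genes above a minimum TPM were changed by a known fold. The simulation approximated the credible intervals from counts. It held no shared reads and no raised genes near 0 counts in pup 1, so it does not cover these cases.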

Additional observations from a re-analysis of the deposited data

How the results depend on the processing

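The depth of these 2 libraries limits ratios of genes under about 10 counts, and with 1 library per pup no alternative can separate the pup from its library. The 15 genes past the 2-fold rule kept their direction and a log2 ratio of 1 or more under spike-in scaling, TMM-scaled CPM, FPKM, the posterior mean and a pseudocount of 0.1. The number past the rule ranged from 13 to 18 under these settings, a lower or no filter on TPM and no condition on credible intervals, and was 23 by the counting interval rule, which was added after the data were seen. Over all genes, 72 passed the main rule. That number ranged from 60 with spike-in scaling to 104 with no condition on credible intervals, and was 184 by the counting interval rule. Spike-in scaling moved the median log2 ratio of all genes from -0.05 to -0.26. Its factor rests on few spike-in counts, 163 in pup 1 and 190 in pup 2, and carries their counting error. The median log2 ratio of the exocrine genes, 2.28, was 4.47 with a pseudocount of 0.1 and 1.55 with no filter. That of the hormones, 2.44, was 3.12 with FPKM, 3.09 with spike-in scaling, 5.27 with a pseudocount of 0.1 and 0.84 with no filter, where the filter decides which of the 6 genes enter. The ratio of summed exocrine TPM, 5.85, was 5.15 with the posterior mean, 4.93 with spike-in scaling, 4.87 with TMM-scaled counts and 21.4 without Cela1 and Amy2a5, an alternative added after the data were seen. The hormone ratio, 148, was 10.9 with the posterior mean, and the trypsinogen ratio, 207, ran from 84.1 to 274. The exocrine to hormone ratio in pup 2, 15.1, was 11.7 without Cela1 and Amy2a5. Genes detected in both livers numbered 5, 16 at a minimum of 0.1 TPM and 15 at 3 counts. Detection in single livers ranged from 5 to 21. The cause of these shifts was not tested. No paired analysis was possible because all samples belong to 1 group.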
